A study of Harpegnathos saltator with 32 samples.

Results

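Corazonin is 1 gene of the 14001 in the deposited table, Crz (LOC105191954), and was found by its row identifier, whose symbol comes from RefSeq. It was described over 32 libraries of the ant Harpegnathos saltator, each made from the central brain of 1 ant. The 4 groups were 8 gamergates given siRNA against Kr-h1, 7 workers given siRNA against Kr-h1, 9 gamergates given GFP siRNA and 8 workers given GFP siRNA. All ants were labelled day 10, all received dicer-substrate siRNA by injection into the head, in glucose with a transfection reagent, and all brains were taken 10 hours later. The controls therefore carry the injection and an siRNA as well, and the protocol text spells the control GRP where the titles spell it GFP. The label of the gamergates adds the word dueler, and the labels give no measure of ovary or behaviour for any ant.

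Gamergates are workers that have become reproductive, and the product of Kr-h1 is a zinc finger regulator of transcription in the juvenile hormone response. Corazonin is a short amidated neuropeptide of the family that also holds adipokinetic hormone and gonadotropin-releasing hormone. In insects it is made by neurosecretory cells of the brain, cut from a precursor, stored in dense core vesicles and released into the blood, where it acts on a G protein-coupled receptor. In this ant it has been described as a peptide of worker and hunting brains that lowers vitellogenin, which is background here and not a result.

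The description label marks experiment 2 and experiment 3. Its leading number, 200508 or 200626, was read here as a sequencing run, which the label does not spell out. Gamergates of experiment 2 were alone on run 200508, while all other libraries were on run 200626, so caste can be told apart from run only within experiment 3. Values are FPKM, fragments per kilobase and scaled for depth. FPKM were whole multiples of 1 read per gene, and the recovered depth was 7.75 to 23.8 M reads per library, with a median of 13.2 M. Crz held 175 to 805 reads per library, with a median of 481, which is a counting error of 3.52% to 7.56%. Worker GFP replicates 4 and 5 stood apart. Of 998 genes whose median lay between 5 and 20 scaled reads, 35.3% and 18.4% were at 0 in them, against at most 8.82% in any other library. Kr-h1 itself (LOC112589664) had a median of 0.386 FPKM in gamergates given Kr-h1 siRNA and 0.809 FPKM in gamergates given GFP siRNA, with a log2 difference of -0.97 (exact two-sided permutation p = 0.0105). Its median was 0.424 FPKM in workers given Kr-h1 siRNA and 0.672 FPKM in workers given GFP siRNA, with a log2 difference of -0.49 (exact p = 0.0359). Both exact tests pooled the experiments. In experiment 2, Kr-h1 averaged 3.31 FPKM in gamergate controls and 0.466 FPKM after Kr-h1 siRNA, and 1.10 and 0.477 FPKM in workers. In experiment 3 these means were 0.644 and 0.419 FPKM in gamergates and 0.592 and 0.385 FPKM in workers, a smaller gap in each caste. The groups overlapped in both castes, so the siRNA label is not visible in every library.

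Crz was read in all 32 libraries, at 14.6 to 89.2 FPKM with a mean of 38.7 FPKM, rank 755 of the 14001 genes. Neuronal genes, which mark the labelled tissue, were abundant in the same libraries. The vesicle protein nSyb had a median of 183.7 FPKM, Syt1, the calcium sensor of release, had 105.8 FPKM, and the active zone gene brp had 37.6 FPKM. None of the 12 neuronal markers measured was at 0 in any library. Per kilobase, Crz was the fourth most abundant of 15 peptide precursor genes, after SIFa at 154.1 FPKM, the diuretic hormone gene Dh31 at 118.7 FPKM and the sulfakinin gene Dsk at 46.2 FPKM. In bulk brain RNA, fewer cells that make the peptide and less RNA per cell cannot be told apart.

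Among gamergates given Kr-h1 siRNA, Crz was at 89.2, 44.4, 47.7 and 42.3 FPKM in the 4 brains of experiment 2, and at 40.7, 60.2, 29.3 and 42.7 FPKM in the 4 of experiment 3. Of these brains, 5 lay between 40.7 and 47.7 FPKM, 2 lay higher and 1 lower. Among workers given Kr-h1 siRNA, Crz was at 56.6, 18.2, 29.9 and 37.3 FPKM in experiment 2, and at 41.7, 19.0 and 20.6 FPKM in experiment 3. The worker values were spread, with high and low brains in both experiments. Among gamergates given GFP siRNA, Crz was at 37.8, 42.7, 44.9 and 39.7 FPKM in experiment 2, and at 44.9, 45.0, 30.9, 42.9 and 25.3 FPKM in experiment 3. This was the most even group, with 2 brains of experiment 3 below the rest. Among workers given GFP siRNA, Crz was at 18.7, 34.6, 45.3, 53.0 and 57.4 FPKM in experiment 2, and at 17.5, 22.6 and 14.6 FPKM in experiment 3. The 3 controls of experiment 3 were low together, and the 2 highest worker controls were the replicates 4 and 5 in which many low genes were at 0.

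**Figure D1:**
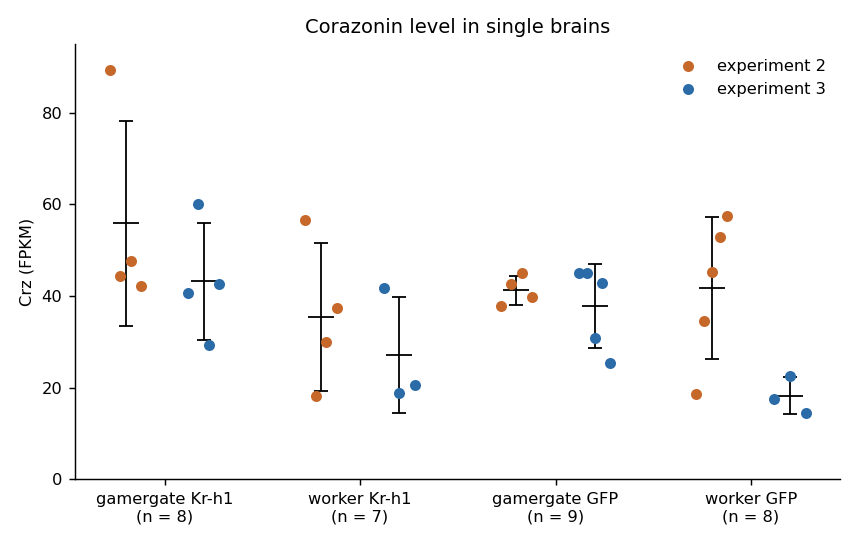
Crz in FPKM in each of the 32 brains, by group and by experiment (colour), with the mean and SD of each group within an experiment as bars. Worker controls of experiment 3 lie between 14.6 and 22.6 FPKM, below all 5 gamergate controls of that experiment, while 1 gamergate given Kr-h1 siRNA stands alone at 89.2 FPKM.

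In order of their means, gamergates given Kr-h1 siRNA had 49.6 ± 18.2 FPKM (SD, n = 8), gamergates given GFP siRNA 39.3 ± 6.97 FPKM (SD, n = 9), workers given GFP siRNA 33.0 ± 17.1 FPKM (SD, n = 8) and workers given Kr-h1 siRNA 31.9 ± 14.3 FPKM (SD, n = 7). The order of the 2 worker groups is not firm, since by mean log2(FPKM + 0.5) workers given Kr-h1 siRNA stood at 4.90 and workers given GFP siRNA at 4.89. No neighbours in this order differed by more than the larger of their SDs. The coefficient of variation was 36.6% in gamergates given Kr-h1 siRNA and 44.7% in workers given Kr-h1 siRNA, and 17.7% in gamergate controls and 51.8% in worker controls. All of these exceed the counting error of 3.52% to 7.56% per library. Within the 8 sets of group and experiment, the residual SD of Crz was 0.492 on the log2 scale. Among 716 genes of like level, within 0.5 on the log2 scale, the median SD was 0.211, and 95.8% of those genes varied less than Crz did.

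Whether Kr-h1 knockdown alters Crz was asked within each caste. In gamergates Crz was 1.20-fold as high after Kr-h1 siRNA as after GFP siRNA, a log2 difference of 0.27 ± 0.23 (SE, 95% interval -0.20 to 0.73), which did not pass the test (limma adjusted p = 0.445). In workers the log2 difference was 0.05 ± 0.24 (SE, 95% interval -0.44 to 0.54; limma adjusted p = 0.926). Both intervals leave room for a change in either direction. Over all 9433 genes tested, limma called 0.721% in gamergates, or 68 genes, at an adjusted p under 0.05. With the replicate number as a block it called 113 genes, and Crz had 0.21 ± 0.23 (SE, limma adjusted p = 0.58). In workers limma called 0%. There, 1618 genes had an unadjusted p below 0.05, and voom on the recovered reads also called 0.

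An exact permutation of the mean log2 values gave the same side of the threshold, with a difference of 0.28 in gamergates (two-sided p = 0.148) and 0.01 in workers (two-sided exact p = 0.976). The gamergate difference was 0.37 in experiment 2 (exact p = 0.143) and 0.18 in experiment 3 (exact p = 0.548). It rested in part on the brain at 89.2 FPKM: without gamergate Kr-h1 replicate 1 it was 0.15 (exact p = 0.331), and without gamergate Kr-h1 replicate 7, the lowest of that group, 0.38 (exact p = 0.0336). In workers the 2 experiments went opposite ways, with -0.25 in experiment 2 (exact p = 0.595) and 0.49 in experiment 3, where 20 splits cannot give a p under 0.1 (exact p = 0.4). Without worker GFP replicates 4 and 5 the limma difference in workers was 0.27 ± 0.24 (SE, adjusted p = 0.645).

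The effect of knockdown in gamergates minus that in workers was 0.22 ± 0.33 for Crz (SE, 95% interval -0.46 to 0.90; limma adjusted p = 0.661). Its sign depended on the libraries, at 0.61 in experiment 2, -0.31 in experiment 3 and -0.005 without worker GFP replicates 4 and 5. Crz was thus not called here, where limma called 16.5% of the genes tested over all libraries, a share that came to 0 genes in either experiment alone.

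No relation of Crz with the level of Kr-h1 passed a test from brain to brain. Across the 32 libraries Pearson's r of their log2 values was 0.13 (permutation p = 0.473) and Spearman's rho was 0.20 (permutation p = 0.265). Without the 2 libraries farthest from the median of Kr-h1, r was 0.14, and within the sets of group and experiment it was 0.10 (permutation p = 0.591). This is 1 of 9 relations of Crz computed, and its adjusted p was 0.709. Kr-h1 lay below the filter for testing, with group medians from 0.386 to 0.809 FPKM beside the added 0.5 FPKM. Its log2 values are compressed at that level, so a relation could be missed.

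Crz was higher in gamergates than in workers in both siRNA groups, though neither difference passed the adjustment over all genes. Among ants given Kr-h1 siRNA, gamergates stood at 1.97-fold the worker level, a log2 difference of 0.98 ± 0.30 (SE, 95% interval 0.36 to 1.59; limma adjusted p = 0.137). Among ants given GFP siRNA, the ratio was 1.69-fold and the log2 difference 0.76 ± 0.29 (SE, 95% interval 0.16 to 1.36; limma adjusted p = 0.14). In this fit the caste level comes from experiment 3, since run and caste coincide in experiment 2. The controls of experiment 2 were level, at 41.3 ± 3.15 FPKM in gamergates (SD, n = 4) and 41.8 ± 15.5 FPKM in workers (SD, n = 5). Over both experiments the mean log2 values of the controls were 5.29 in gamergates and 4.89 in workers, a smaller gap than the fitted one. The direction of the fitted difference is the opposite of that in the background given above, where corazonin is a peptide of worker brains. Limma called 0.17% of the genes between castes after Kr-h1 siRNA and 1.33% after GFP siRNA. By unadjusted p, Crz stood within the first 2.12% of the genes after Kr-h1 siRNA and within the first 10.2% after GFP siRNA.

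The control difference passed the threshold when libraries were weighted by their scatter about the fitted means (0.92, limma adjusted p = 0.0125). It also passed when the 4 libraries with a weight under 0.3 were left out (0.94, limma adjusted p = 0.0437). Those were gamergate Kr-h1 replicate 1, worker Kr-h1 replicate 2, gamergate GFP replicate 1 and worker GFP replicate 4. The weights came from these same values and groups, so the 2 fits are no independent support. Weighting raised the genes called in this contrast from 125 to 1106. Set across both treatments, gamergates given Kr-h1 siRNA exceeded workers given GFP siRNA by 1.03 ± 0.30 (SE, limma adjusted p = 0.279; 0.106% of genes called), and gamergates given GFP siRNA exceeded workers given Kr-h1 siRNA by 0.71 ± 0.29 (SE, limma adjusted p = 0.325; 0.647% called). These 4 caste comparisons share libraries pairwise and are not independent of each other.

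**Figure D2:**
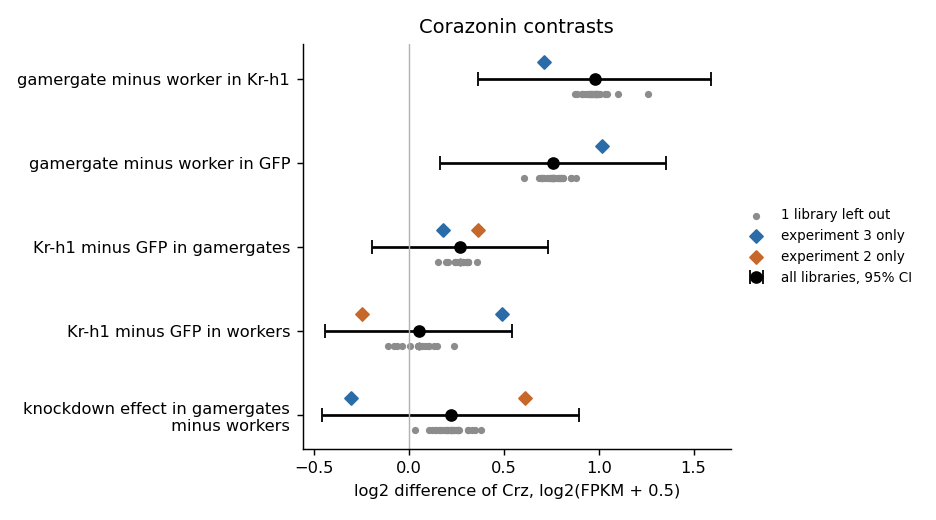
Log2 difference of Crz in 5 contrasts, on the log2(FPKM + 0.5) scale: black points and bars show all libraries with the 95% interval, diamonds each experiment alone, and grey points the fit with 1 library left out. Both caste differences stay above 0 in the values shown. With 1 library left out they run from 0.60 to 0.88 in GFP and from 0.87 to 1.26 in Kr-h1. The worker knockdown value lies on both sides of 0. The caste contrasts have no diamond for experiment 2, where run and caste coincide. Controls of experiment 2 averaged 41.3 FPKM in gamergates and 41.8 FPKM in workers.

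Within experiment 3, where both castes shared a run, gamergate controls had 37.8 ± 9.11 FPKM (SD, n = 5) and worker controls 18.2 ± 4.06 FPKM (SD, n = 3). The 2 groups did not overlap. All gamergates lay above all workers in 6.14% of the 9433 genes in this comparison. The log2 difference was 1.02 (exact two-sided p = 0.0357, adjusted over 4 tests of Crz 0.143; 56 splits cannot give less than 0.0179). It missed 0.05 when any of gamergate GFP replicates 5, 6, 7 or 8 was left out (exact p = 0.0571 at the highest). After Kr-h1 siRNA, gamergates of experiment 3 had 43.2 ± 12.8 FPKM (SD, n = 4) and workers 27.1 ± 12.7 FPKM (SD, n = 3), which overlapped. The log2 difference was 0.71 (exact p = 0.171).

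Over both siRNAs, 9 of 9 gamergates of experiment 3 lay above the worker median of 19.8 FPKM, and 5 of 9 lay above every worker. Of the workers, 5 of 6 lay below every gamergate, the exception being worker Kr-h1 replicate 5 at 41.7 FPKM. A test over both siRNAs, with castes permuted within siRNA, was added after these values had been seen. It gave a log2 difference of 0.87 (exact two-sided p = 0.00408, adjusted over 6 tests of Crz 0.0245), and 0.78 to 1.04 when 1 library was left out (exact p from 0.00119 to 0.00952).

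In workers Crz was compared between the experiments as well. They had 39.0 ± 15.1 FPKM (SD, n = 9) in experiment 2 and 22.7 ± 9.74 FPKM (SD, n = 6) in experiment 3, on the same run. The difference of experiment 2 minus experiment 3 was 0.75 on the log2 scale (exact p = 0.0408). It did not pass after adjustment over 6 tests (0.0816), and this test too was added after the values had been seen. Leaving out 1 library moved the exact p between 0.0152 and 0.0952. Worker GFP replicates 4 and 5, at 53.0 and 57.4 FPKM, were in experiment 2, and the test was not run without both. The summed glial markers of workers ran from 927 to 1305 FPKM in experiment 2 and from 822 to 935 FPKM in experiment 3. Their summed neuronal markers had medians of 739 and 673 FPKM. The part of these sums in the difference was not tested. Gamergates had 48.6 ± 16.7 FPKM (SD, n = 8) in experiment 2 and 40.2 ± 10.5 FPKM (SD, n = 9) in experiment 3, and for them run and experiment cannot be told apart.

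Markers of other cells moved with caste in part. In experiment 3, over both siRNAs, the lowest, median and highest sum of 12 neuronal markers was 660, 722 and 762 FPKM in gamergates. In workers it was 585, 673 and 729 FPKM. The sum of 9 glial markers was 811, 1000 and 1269 FPKM in gamergates and 822, 845 and 935 FPKM in workers. In the controls of experiment 3, where Crz did not overlap between castes, neither of these sums overlapped. There the neuronal sum ran from 660 to 762 FPKM in gamergates and from 585 to 643 FPKM in workers. The glial sum ran from 958 to 1269 FPKM in gamergates and from 822 to 935 FPKM in workers. After Kr-h1 siRNA both sums overlapped between the castes of experiment 3. In controls over both experiments, 4 of the 9 glial genes were called higher in gamergates, against 0.731% of all genes called higher. The largest of the 4 differences was that of Gat-a, a GABA transporter gene, at 1.03 ± 0.19 (SE, limma adjusted p = 0.00683). The most abundant glial markers, Gs2 and Eaat2, had 0.44 and -0.11 and were not called (limma adjusted p = 0.109 and 0.638). In the same controls 2 of 9 retinal genes were called lower, against 0.594% of all genes, while 7 of the 9 lay above 0 and their median was 0.62. No neuronal or muscle marker was called between castes in either siRNA group. Over both siRNAs of experiment 3, summed muscle markers were 52.1, 63.7 and 107.9 FPKM in gamergates and 54.9, 68.5 and 160.6 FPKM in workers. Summed retinal markers were 63.9, 553 and 665 FPKM in gamergates and 130, 542 and 942 FPKM in workers. The parts of glial, neuronal, muscle and retinal RNA in the Crz difference were not tested.

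From brain to brain, Crz varied with the neuronal sum. Pearson's r of Crz with it was 0.51 (permutation p = 0.0031, adjusted over 9 relations 0.0279) and Spearman's rho was 0.43 (permutation p = 0.015). Without the 2 libraries farthest from the median r was 0.38, and within the sets of group and experiment it was 0.39 (permutation p = 0.037, adjusted 0.167), so it did not pass the adjustment there. With total reads r was -0.39 (permutation p = 0.026, adjusted 0.117) and rho was -0.27 (permutation p = 0.142), without 2 libraries r was -0.22, and within the sets it was -0.31. With the share of low genes at 0, r was 0.33 (permutation p = 0.0664, adjusted 0.199) and rho was 0.44 (permutation p = 0.0112), with r at 0.37 without 2 libraries and 0.38 within the sets. The muscle, retinal and glial sums gave r between -0.18 and 0.15, with adjusted permutation p of at least 0.709. Within the sets the muscle and retinal sums gave -0.04 each and the glial sum gave -0.37 (permutation p = 0.028, adjusted 0.167). The remaining relations, with the receptor gene and with a trend over gene span in the library, gave r of 0.01 and 0.05. Within the sets the receptor gene gave -0.20 (permutation p = 0.239, adjusted 0.359). The span trend gave -0.44 there, the largest in size of the 9 (permutation p = 0.0582, adjusted 0.175).

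**Figure D3:**
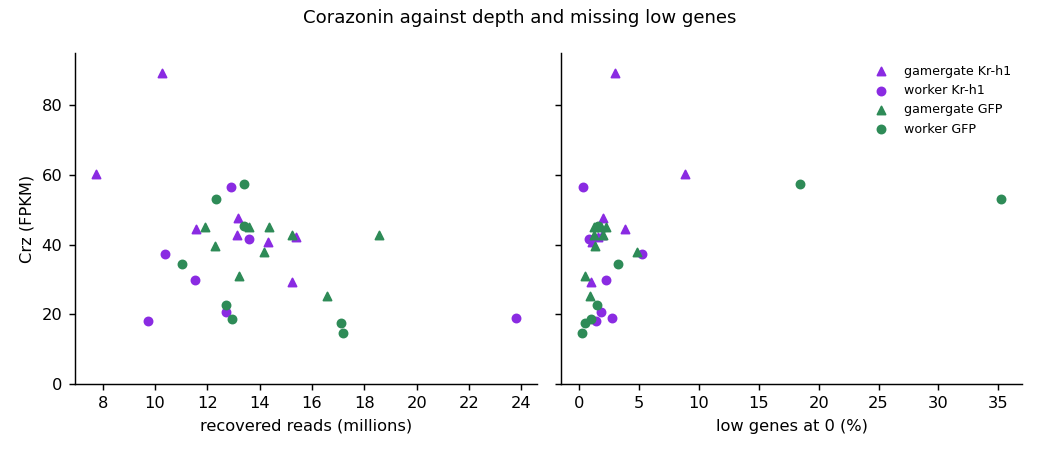
Crz in FPKM against recovered reads in M (left) and against the percentage of 998 low genes at 0 (right), 1 symbol per brain, with group by colour and shape. The brain with the highest Crz, at 89.2 FPKM, is not among those with many low genes at 0, while worker GFP replicates 4 and 5, at 53.0 and 57.4 FPKM, are.

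The receptor of corazonin, Crzr (LOC105183138), was barely detected. It was above 0 in 11 of 32 libraries, with at most 0.168 FPKM and at most 5 reads in a brain, and 21 reads over all brains. Of these, 6 fell in gamergates given Kr-h1 siRNA, 2 in workers given Kr-h1 siRNA, 11 in gamergate controls and 2 in worker controls. At this depth no comparison of the receptor between groups can be made, and it lay below the filter for testing. The peptide gene was thus read at 14.6 FPKM or more in every brain in which its receptor gave at most 5 reads.

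The peptide precursors were taken as a list that includes Crz, with 15 in the table and 14 tested. None was called for knockdown in either caste. Between castes after Kr-h1 siRNA, 1 was called higher and 1 lower in gamergates, where 0.053% of all genes were called higher and 0.117% lower, with a median log2 difference of -0.17 against 0.00 over all genes. After GFP siRNA, 0 were called higher and 1 lower, where 0.731% of all genes were called higher and 0.594% lower, with a median of -0.09 against -0.01 over all genes. In controls 6 of 14 lay above 0, and after Kr-h1 siRNA 5 of 14 did, Crz being among them both times.

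CCHa1, which encodes a brain and gut peptide in Drosophila, was the precursor most like Crz in its caste difference. It averaged 9.10 ± 2.71 FPKM in gamergates given Kr-h1 siRNA (SD, n = 8) and 4.62 ± 1.15 FPKM in workers given Kr-h1 siRNA (SD, n = 7), and its log2 difference was 1.39 ± 0.23 (SE, limma adjusted p = 0.00841). In controls its difference was 0.80 ± 0.23 (SE, limma adjusted p = 0.0611). In experiment 3 alone the control difference was 1.10 ± 0.16 (SE, limma adjusted p = 0.0233). Apart from fits that left out 1 library, 5 alternatives called it and 9 did not. The controls of experiment 2 alone averaged 6.56 ± 1.89 FPKM in gamergates (SD, n = 4) and 8.12 ± 2.75 FPKM in workers (SD, n = 5). Without the batch term the call of CCHa1 after Kr-h1 siRNA was lost (limma adjusted p = 0.0607). The insulin-like peptide gene ILP-2 was lower in gamergates, at 10.1 ± 2.39 FPKM after Kr-h1 siRNA (SD, n = 8) against 19.3 ± 5.43 FPKM in workers given Kr-h1 siRNA (SD, n = 7). Its log2 difference was -0.95 ± 0.20 (SE, limma adjusted p = 0.042). This call was lost in experiment 3 alone (limma adjusted p = 0.157) and with the replicate block (limma adjusted p = 0.0614). It was also lost without the filter (limma adjusted p = 0.068) and with the span trend removed (limma adjusted p = 0.0538). Of 32 fits that left out 1 library, 21 lost it. In controls ILP-2 had -0.89 ± 0.20 (SE, limma adjusted p = 0.0194), with limma adjusted p = 0.0571 in experiment 3 alone and 0.0694 with the block. Neuropeptide F, NPF, a feeding peptide, had -0.78 ± 0.21 in controls (SE, limma adjusted p = 0.052) and -0.24 ± 0.22 after Kr-h1 siRNA (SE, limma adjusted p = 0.593). No other precursor was called, though some values were not far from that of Crz in size. In controls Eth, the ecdysis triggering hormone gene, had 0.59 ± 0.41 (SE, limma adjusted p = 0.402) and the pigment dispersing factor gene Pdf had -0.64 ± 0.59 (SE, limma adjusted p = 0.532). The myosuppressin gene Ms had -0.41 ± 0.15 after Kr-h1 siRNA (SE, limma adjusted p = 0.192).

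**Figure D4:**
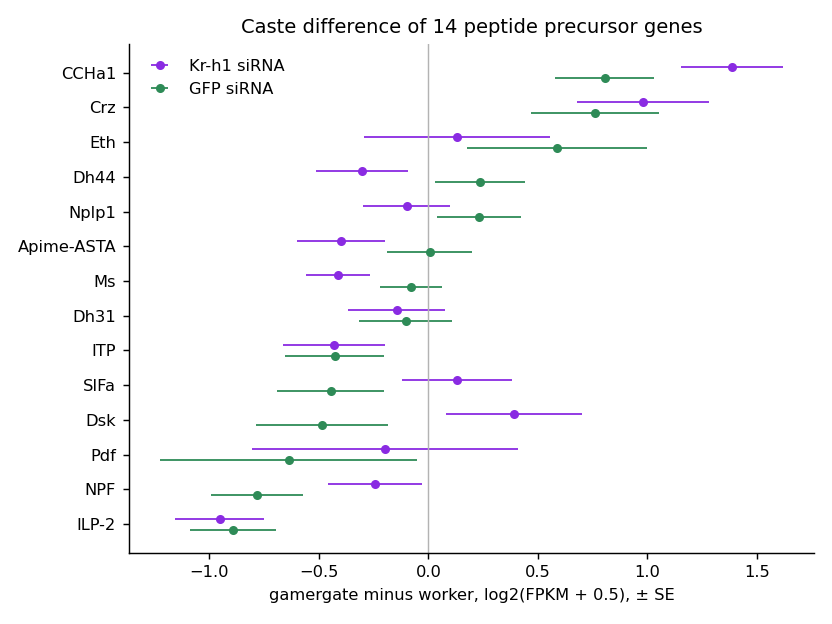
Log2 difference of gamergates minus workers for 14 peptide precursor genes, with SE bars, after Kr-h1 siRNA (purple) and GFP siRNA (green). Crz, at 0.98 and 0.76, and CCHa1, at 1.39 and 0.80, lie to the right in both, and ILP-2, at -0.95 and -0.89, lies to the left in both.

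Genes that make and clear such peptides were called only in the comparison of the knockdown effect between castes. Of 12 processing genes, 11 were tested, and 4 had a lower knockdown effect in gamergates than in workers, against 7.01% of all genes called lower. The median log2 value was -0.29 over the 11, against 0.01 over all genes. They were amon, the prohormone convertase that cuts peptide precursors in Drosophila, at -0.78 ± 0.22 (SE, limma adjusted p = 0.0252), the furin gene Fur2 at -1.21, the carboxypeptidase gene svr at -0.89 and the neprilysin gene Nep3 at -0.80 (limma adjusted p between 0.0231 and 0.0357). For amon the knockdown difference was -0.39 ± 0.15 in gamergates (SE, limma adjusted p = 0.117) and 0.39 ± 0.16 in workers (SE, limma adjusted p = 0.246). Phm, the enzyme of the amidation step that corazonin also needs, had 0.10 ± 0.13 (SE, limma adjusted p = 0.594). All 4 calls were lost in either experiment alone, where amon had -1.21 in experiment 2 (limma adjusted p = 0.0632) and -0.23 in experiment 3 (limma adjusted p = 0.497), and without the 4 libraries of low weight. The replicate block ended those of amon (limma adjusted p = 0.06) and svr (limma adjusted p = 0.0828). In the same comparison 2 of 9 glial markers were called lower, with a median of -0.34, and all 8 tested muscle markers lay above 0, with a median of 1.03 and 0 called. Of 12 neuronal markers 2 were called lower, with a median of -0.07, and of 4 haemocyte (blood cell) markers 1 was. Of 9 tested retinal markers 1 was called higher, with a median of -0.58, where 893 of all 9433 genes were called higher. The parts of glial, muscle, neuronal, haemocyte and retinal RNA in these values were not tested.

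Among 9 tested peptide receptors of 10 in the table, 3 had a lower knockdown effect in gamergates than in workers, against 7.01% of all genes called lower. They were rk, the bursicon receptor, at -0.55, the PDF receptor Pdfr at -0.42 and the insulin receptor gene InR-2 at -0.44 (limma adjusted p between 0.0323 and 0.0407). Among 11 tested genes of reproduction and hormone response, of 14 in the table, 2 did so against the same 7.01%: br, an ecdysone response gene, at -1.02 (limma adjusted p = 0.0261), and the nuclear receptor gene ftz-f1 at -0.46 (limma adjusted p = 0.0374). These 5 calls were lost in either experiment alone, with the replicate block (limma adjusted p from 0.0504 for br to 0.0861 for rk) and with the span trend removed. No gene of the processing, receptor and hormone lists was called for caste in either siRNA group.

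The genes whose level followed Crz most closely over the 32 libraries were taken from 3870 tested genes with a symbol, by Spearman's correlation of FPKM, as a description. The highest were Prosbeta2, a proteasome subunit, at 0.77, CCHa1 at 0.75, NP15.6 at 0.71, nudC, a dynein cofactor, at 0.71 and arm, the beta-catenin gene, at 0.70. The lowest were the small GTPase gene Rab35 at -0.74, papi at -0.71, the DNA repair gene FANCI at -0.71, Blos4 at -0.64 and the kinase gene Pkn at -0.63. Over all 9432 other genes the middle 95% of the correlations ran from -0.46 to 0.53. The libraries share their groups, experiments and depths, and these enter each correlation.

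By Pearson's correlation of residuals, with the means of group and experiment removed, all 10 genes kept their sign, at 0.55 to 0.61 for the highest 5 and at -0.74 to -0.50 for the lowest 5. Other genes then ranked first, under a change of both the measure and the means. The highest were Arf79F at 0.75, mRpL47 at 0.75, tsr at 0.74, His2Av at 0.72 and bi at 0.71. The lowest were Osbp at -0.75, ftz-f1 at -0.75, papi at -0.74, Vinc at -0.73 and Sara at -0.72. Of the 10 genes named first, papi alone was among these 10, and 95% of all genes lay between -0.58 and 0.60. CCHa1 and Prosbeta2 had 0.61 each by residuals. CCHa1 correlated with Crz at 0.55 within gamergates and at 0.66 within workers. Among gamergates of experiment 3, CCHa1 averaged 9.02 FPKM after Kr-h1 siRNA and 7.39 FPKM after GFP siRNA. Among workers of experiment 3, it averaged 4.01 FPKM after Kr-h1 siRNA and 3.21 FPKM after GFP siRNA, so it was low where Crz was low.

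**Figure D5:**
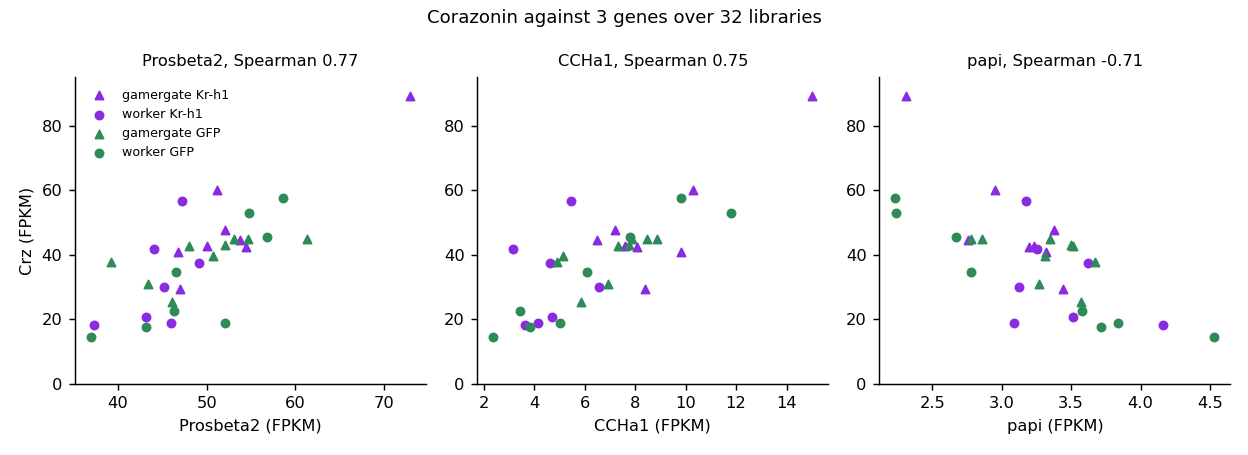
Crz in FPKM against Prosbeta2, CCHa1 and papi in FPKM, 1 symbol per brain, with group by colour and shape. Spearman's correlation over the 32 libraries is 0.77, 0.75 and -0.71, and the brain at 89.2 FPKM of Crz is also highest in Prosbeta2 and CCHa1.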

How the data were processed

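The authors deposited FPKM per gene, scaled for depth, for 32 strand-specific polyadenylated RNA libraries of 1 brain each, per the labels. The submitters' processing notes name bcl2fastq, STAR, featureCounts and DESeq2. The sources used here give neither roles, versions nor a genome build, and no coordinates or sequences are printed. Symbols came from RefSeq Hsal_v8.6, which matched 13989 identifiers and left 12 unmatched.

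Whole reads were recovered from the deposited FPKM for 100.0% of 12692 genes detected in at least 3 libraries, within 0.02 reads (3.0% of 500 genes with jittered scales). Even numbers made up 55.1% of the values, so reads may be counted in pairs, and counting errors cover counting alone.

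Limma 3.58.1 in R 4.3.3 was fitted to log2(FPKM + 0.5) of the 9433 genes that reached 1 FPKM in 7 or more libraries. The fit had 4 groups and 3 batches (experiment 2 or 3 on run 200626, experiment 2 on run 200508), a variance trend and Benjamini-Hochberg adjustment, with calls under 0.05. Fold changes on this scale understate low genes. The fit was tested on simulated data. Single values were tested by exact two-sided permutation of mean log2, and relations by 100000 permutations.

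The gene, the lists and the tests were chosen with earlier results of these data known. By rule, the genes named were Crz, Kr-h1, Crzr and called list members or else those of smallest p. The rule also took the 5 highest and 5 lowest correlations and the most abundant markers. Some named genes lie outside it. Phm was chosen after its values were seen. Eth and Pdf did not have the smallest p, and Syt1, brp and Gat-a were not the most abundant markers of their lists. Deviations from group means of gamergates with the same replicate number correlated at 0.225 to 0.719, and of workers at -0.118 to 0.202. Taken from the means of group and experiment, the ranges were -0.406 to 0.438 in gamergates and -0.307 to 0.240 in workers. The cause was not tested. Alternatives covered the pseudocount, filter, scaling, batch term, experiments, a replicate block, library weights, robust variance, gene span and each library left out. Added later were limma voom on recovered reads, fits without worker GFP replicates 4 and 5, and the last 2 tests of Crz.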

Additional observations from a re-analysis of the deposited data

Results flagged for a closer look

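Crz in gamergate Kr-h1 replicate 1 was at 89.2 FPKM and stood far from the other 3 brains of its group in experiment 2, by Dixon's test for a single distant value, though not among the 8 brains of the group over both experiments. Over both experiments pooled, the same test marked Kr-h1 itself in worker Kr-h1 replicate 4 at 0.840 FPKM, gamergate GFP replicate 1 at 7.57 FPKM and worker GFP replicate 4 at 2.54 FPKM, none of which was marked within its own experiment. Chance marks about 1 in 20 groups.

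The knockdown effect differed between castes, by limma's test of the difference, for 9 genes of the peptide and hormone lists. In gamergates minus workers, on the log2 scale, it was -0.78 for amon, -1.21 for Fur2, -0.89 for svr and -0.80 for Nep3. It was -0.55 for rk, -0.42 for Pdfr and -0.44 for InR-2. It was -1.02 for br and -0.46 for ftz-f1. None of the 9 was called in either experiment alone, without the 4 libraries of low weight, without the batch term or with the span trend removed. With the replicate block 2 of the 9, Fur2 and Nep3, were called. The causes of these values were not tested.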

How the results depend on the processing

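Crz was called in no contrast except the 2 control caste fits with weights (0.92) and without the 4 low-weight libraries (0.94). Its sign turned in workers in experiment 2 (-0.25) and for mean FPKM (-1.07), and for the caste difference of knockdown in experiment 3 (-0.31), with array weights (-0.23), without low-weight libraries (-0.17) and without worker GFP replicates 4 and 5 (-0.005). Leaving out 1 library gave -0.11 to 0.24 for knockdown in workers, 0.15 to 0.36 in gamergates, 0.60 to 0.88 for caste in controls, 0.87 to 1.26 after Kr-h1 siRNA and 0.03 to 0.38 for the difference of knockdown. For the exact tests it gave -0.15 to 0.15 in workers, 0.15 to 0.38 in gamergates, 0.87 to 1.18 for caste in controls of experiment 3 and 0.50 to 1.06 after Kr-h1 siRNA. The cause was not tested. Experiment 2 alone gives no caste value.

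Counts of called genes moved more. They are given for knockdown in gamergates, caste in Kr-h1, caste in controls and the difference of knockdown, where they changed by over 1.5 times from 68, 16, 125 and 1554. Without the filter they were 11, 6 and 81 for the first 3. Quantile scaling gave 27 and 188 for caste. Without the batch term they were 0 for gamergate knockdown, 4436 for caste in controls and 0 for the difference. Experiment 2 alone gave 11 for gamergate knockdown and 0 for the difference, and experiment 3 alone gave 6, 68, 45 and 0. The replicate block gave 113, 3, 53 and 698, with Crz at 0.21 in gamergates, 0.08 in workers, 0.96 and 0.84 for caste and 0.13 for the difference, and it changed no call of Crz, while it ended 7 of the 9 calls of list genes for the difference and both caste calls of ILP-2. Array weights gave 820, 395, 1106 and 817, with 5 for knockdown in workers. Without low-weight libraries they were 144, 30, 288 and 0. Removing the span trend gave 0 for gamergate knockdown, 34 for caste in Kr-h1 and 165 for the difference. Voom gave 23 for gamergate knockdown and 29 for caste in Kr-h1. Without worker GFP replicates 4 and 5 they were 391 for gamergate knockdown, 25 for caste in Kr-h1 and 625 for the difference. Leaving out 1 library gave 0 to 874, 2 to 71, 26 to 236 and 399 to 2194, and 0 to 0 in workers. Of the 10 genes most like Crz, 1 was among the first by Pearson's correlation of residuals, where measure and means both changed.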
